A study of Arabidopsis thaliana with 18 samples.

Results

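Pirins are iron-containing nuclear proteins of the cupin superfamily. Arabidopsis thaliana has 4 of them, PRN1 (AT3G59220), PRN2 (AT2G43120), AT3G59260 and PRN4 (AT1G50590), and their transcripts were read by gene ID from a table of 33602 genes. The family was taken up because PRN2 is lower where the Mediator subunit MED5 is lost, so the size of that difference is a description and carries no test here. Of the 4 genes, 3 had enough counts to be tested, and AT3G59260 did not.

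The measurements were poly(A) RNA-seq counts from whole rosettes of 18-day-old Columbia-0 plants, with 5 rosettes pooled in each library and 3 libraries per genotype. The 6 genotypes were ref5-1 med5a-1 med5b-1, ref2-1 med5a-1 med5b-1, med5a-1 med5b-1, ref5-1, ref2-1 and wild type. The double mutant is written med5 from here on. The ref5-1 allele changes CYP83B1, a cytochrome P450 of indole glucosinolate synthesis, and ref2-1 affects its aliphatic counterpart CYP83A1. Each gene was represented by 1 mutant allele, and the tissues of a rosette were not separated. A lower level in such bulk tissue can mean fewer cells of a type or less RNA per cell, and these cannot be told apart.

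PRN2 is known for holding back syringyl (S-type) lignin in cells next to the xylem. It binds the histone ubiquitin ligase HUB2, acts on the expression of FAH1 (ferulate 5-hydroxylase, the enzyme that commits precursors to S-type lignin), and stabilises the xylem cysteine protease XCP2. PRN1 binds the G protein alpha subunit GPA1 and acts with NF-Y factors in responses to blue light and abscisic acid, and quercetin-degrading activity has been reported for it. MED5A and MED5B are subunits of Mediator, the complex that links transcription factors to RNA polymerase II, and their loss has been reported to relieve the low phenylpropanoid content of both ref mutants.

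Gene counts per library ran from 19578169 to 33193849, so that 1 CPM (a count scaled to library size, with the trimmed mean of M values) stood for 18.9 to 31.8 counts. The labels could be checked on MED5B, which averaged between 6.68 and 8.10 CPM in the 3 genotypes with the med5 alleles, against 24.5 to 27.8 CPM in the 3 without them. MED5A averaged 26.7 to 38.7 CPM with the alleles, against 39.1 to 49.6 CPM without them, so its transcript was still counted. CYP83A1 averaged 138 CPM in ref2-1 med5 and 123 CPM in ref2-1, against 402 to 469 CPM elsewhere. The level of CYP83B1, 176 to 275 CPM, does not check ref5-1, an allele that changes the protein. Photosynthetic marker genes summed to between 35696 and 46699 CPM in every library. Root markers summed to at most 1.57 CPM. Floral markers were low but not flat. They summed to 3.17 to 4.72 CPM in ref5-1 med5, 6.99 to 8.77 CPM in ref2-1 med5 and 6.33 to 11.1 CPM in med5, against 2.41 to 3.90 CPM in ref5-1, 3.13 to 3.26 CPM in ref2-1 and 4.36 to 5.18 CPM in wild type. Of the 5 floral markers 1 was called higher in ref5-1 med5 than in ref5-1 (6.09% of all tested genes) and 3 in ref2-1 med5 than in ref2-1 (4.65%). The part of the floral markers in the pirin levels was not tested.

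PRN2 was the most abundant pirin in all 6 genotypes, also per kilobase of coding sequence. Its 18 libraries held 6073 counts in all, from 49 to 959 per library. Without functional MED5, PRN2 had 3.69, 2.98 and 4.28 CPM in the ref5-1 med5 libraries. The ref2-1 med5 libraries had 2.24, 3.33 and 2.16 CPM, and the med5 libraries had 3.88, 4.53 and 3.68 CPM. All 9 of these libraries lay below every library with intact MED5. Among those, ref5-1 had 32.9, 36.7 and 38.5 CPM, ref2-1 had 13.2, 13.6 and 12.5 CPM, and wild type had 21.9, 21.2 and 21.3 CPM. The order of the means was ref5-1, wild type, ref2-1, med5, ref5-1 med5 and ref2-1 med5. Among the first 4 no genotype overlapped the next one, whereas the libraries of ref5-1 med5 overlapped those of med5 and those of ref2-1 med5.

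**Figure D1:**
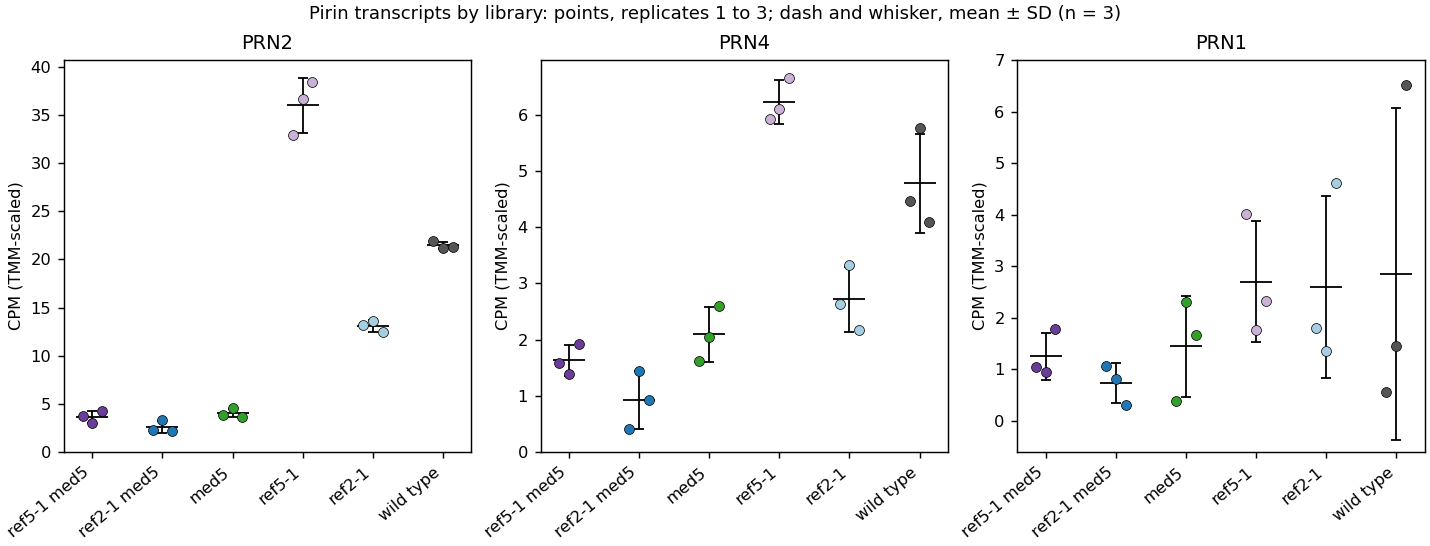
TMM-scaled CPM of PRN2, PRN4 and PRN1 (vertical axes, linear and different for each gene) in each of the 18 libraries, grouped by genotype, where points are libraries, the dash is the mean and the whisker is 1 SD (n = 3). PRN2 and PRN4 libraries of ref5-1 sit above wild type and those of ref2-1 below it, whereas the PRN1 libraries of wild type spread from 0.558 to 6.52 CPM and their whisker passes below 0, since the SD exceeds the mean.

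As a description, PRN2 averaged 4.03 ± 0.444 CPM in med5 and 21.5 ± 0.391 CPM in wild type (SD, n = 3 each), a log2 fold change of -2.41 ± 0.14 (SE) or 5.31-fold lower. In the ref5-1 background PRN2 averaged 3.65 ± 0.651 CPM in ref5-1 med5 and 36.0 ± 2.85 CPM in ref5-1, 9.98-fold lower (log2 fold change -3.32 ± 0.14). In the ref2-1 background it averaged 2.58 ± 0.654 CPM in ref2-1 med5 and 13.1 ± 0.602 CPM in ref2-1, 5.07-fold lower (log2 fold change -2.34 ± 0.14). Ordered from the lowest log2 fold change among the 19897 tested genes, PRN2 stood at place 34 in med5 against wild type, 17 in ref5-1 med5 against ref5-1 and 64 in ref2-1 med5 against ref2-1. The share of all tested genes called at an adjusted p under 0.05 in these comparisons was 0.779%, 10.8% and 8.91%. On the log2 scale the MED5 difference was 0.91 ± 0.19 more negative in ref5-1 than in the wild-type background (interaction of -0.91), and the interaction with ref2-1 was 0.07 ± 0.20. These values share the libraries on which PRN2 was chosen and carry no test.

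PRN2 differed from wild type in opposite directions in the 2 glucosinolate mutants. PRN2 was higher in ref5-1 than in wild type by 1.68-fold (log2 fold change 0.75 ± 0.12, adjusted p = 0.000556, edgeR's quasi-likelihood test with Benjamini-Hochberg adjustment over all tested genes, the test behind every adjusted p that follows). It was lower in ref2-1 than in wild type by 1.64-fold (log2 fold change -0.71 ± 0.12, adjusted p = 0.000375). Both comparisons use the wild-type libraries that also served to choose the gene. In the direct comparison of the mutants PRN2 was 2.74-fold higher in ref5-1 than in ref2-1 (log2 fold change 1.46 ± 0.12, adjusted p = 5.71e-07). The ref5-1 and ref2-1 libraries, too, enter the comparisons of MED5 loss, so none of the 3 tests is fully separate from the choice of PRN2. All 3 libraries of ref5-1 lay above all 3 of wild type, and all 3 of ref2-1 below them.

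In plants without MED5, PRN2 was called in 1 of 3 comparisons of alleles. It was not called between ref5-1 med5 and med5, at 3.65 and 4.03 CPM (log2 fold change -0.16 ± 0.15, adjusted p = 0.565). It was lower in ref2-1 med5 than in med5, at 2.58 and 4.03 CPM (log2 fold change -0.64 ± 0.16, adjusted p = 0.0115). That call was lost without ref2-1 med5 replicate 1 (log2 fold change -0.55, adjusted p = 0.0580) and without ref2-1 med5 replicate 3 (log2 fold change -0.53, adjusted p = 0.0528). Between ref5-1 med5 and ref2-1 med5 the log2 fold change was 0.48 ± 0.16, which missed the threshold (adjusted p = 0.0542). It passed without ref5-1 med5 replicate 2 (0.63, adjusted p = 0.0269) and without ref2-1 med5 replicate 2 (0.71, adjusted p = 0.0115). The libraries without MED5 also served to choose PRN2, so none of these 3 tests is fully separate from that choice.

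**Figure D2:**
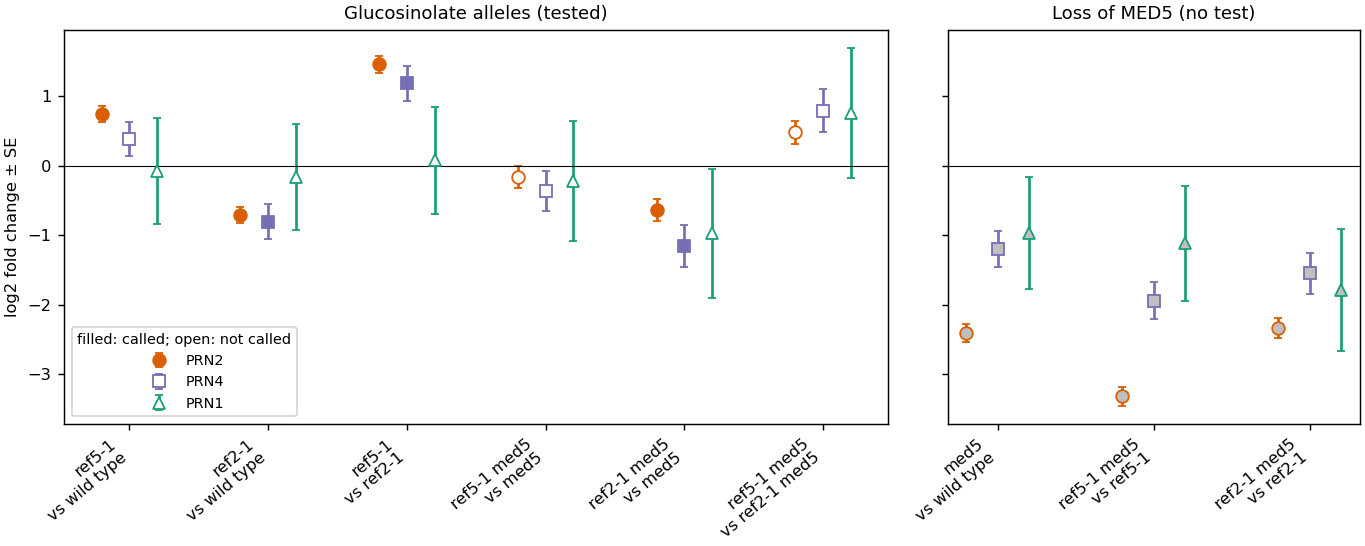
Log2 fold changes (vertical axis) with their SE for PRN2, PRN4 and PRN1 in 6 tested comparisons of glucosinolate alleles (left) and, without a test, in 3 comparisons of MED5 loss (right). In the left panel filled symbols passed an adjusted p of 0.05 and open ones did not, and in the right panel grey symbols mark values without a test. PRN2 and PRN4 are on the same side of 0 in each comparison, from 1.46 and 1.19 in ref5-1 against ref2-1 to -3.32 and -1.94 in ref5-1 med5 against ref5-1.

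PRN4, a pirin about which less is known, was second to PRN2 per kilobase in 5 of the 6 genotypes. It had 1369 counts in all, between 9 and 166 per library. The ref5-1 med5 libraries had 1.58, 1.38 and 1.92 CPM of PRN4, the ref2-1 med5 libraries 0.403, 1.44 and 0.925 CPM, and the med5 libraries 1.62, 2.05 and 2.60 CPM. With intact MED5, ref5-1 had 5.92, 6.11 and 6.66 CPM, ref2-1 had 2.64, 3.33 and 2.17 CPM, and wild type had 4.46, 5.77 and 4.10 CPM. The order of the 6 means was the same as for PRN2. Here ref5-1, wild type and ref2-1 did not overlap with each other, whereas ref2-1 overlapped med5, as did each pair of neighbours below it in the order.

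PRN4 was called in 3 of the 4 tested comparisons that set ref2-1 plants against others. It was 1.75-fold lower in ref2-1 than in wild type, at 2.71 ± 0.580 and 4.78 ± 0.881 CPM (SD, n = 3 each, log2 fold change -0.81 ± 0.25, adjusted p = 0.0260). This call was lost without wild type replicate 2 (log2 fold change -0.65, adjusted p = 0.128), without ref2-1 replicate 1 (-0.79, adjusted p = 0.0701) and without ref2-1 replicate 3 (-0.68, adjusted p = 0.0978). In ref5-1, at 6.23 ± 0.385 CPM, PRN4 was 2.28-fold higher than in ref2-1 (log2 fold change 1.19 ± 0.25, adjusted p = 0.0025). Its difference between ref5-1 and wild type was not called (log2 fold change 0.38 ± 0.24, adjusted p = 0.376), although the libraries did not overlap.

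In plants without MED5, PRN4 was 2.23-fold lower in ref2-1 med5 than in med5, at 0.922 ± 0.518 and 2.09 ± 0.491 CPM (log2 fold change -1.16 ± 0.31, adjusted p = 0.0165). The call was lost without med5 replicate 3 (log2 fold change -0.98, adjusted p = 0.0645), without ref2-1 med5 replicate 1 (-0.81, adjusted p = 0.0692), and when only the libraries compared were fitted (-1.16, adjusted p = 0.0570). Between ref5-1 med5 and med5 the log2 fold change of PRN4 was -0.37 ± 0.29 (adjusted p = 0.482). Between ref5-1 med5 and ref2-1 med5 it was 0.79 ± 0.31 (adjusted p = 0.102), and this passed without ref2-1 med5 replicate 2 (1.27, adjusted p = 0.0260). As a description without a test, PRN4 was 2.29-fold lower in med5 than in wild type (log2 fold change -1.20 ± 0.26), 3.85-fold lower in ref5-1 med5 than in ref5-1 (-1.94 ± 0.27) and 2.92-fold lower in ref2-1 med5 than in ref2-1 (-1.55 ± 0.30). The 9 libraries without MED5 reached at most 2.60 CPM, and among the genotypes with MED5 only ref2-1 had a library in that range, at 2.17 CPM.

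PRN1 was scarcer and far more variable. Its 849 counts were spread between 7 and 172 per library. The ref5-1 med5 libraries had 1.06, 0.942 and 1.78 CPM of PRN1, the ref2-1 med5 libraries 1.08, 0.822 and 0.308 CPM, and the med5 libraries 0.384, 2.31 and 1.67 CPM. With MED5, ref5-1 had 4.02, 1.77 and 2.33 CPM, ref2-1 had 1.81, 1.36 and 4.62 CPM, and wild type had 0.558, 1.46 and 6.52 CPM. The means of wild type, ref5-1, ref2-1, med5, ref5-1 med5 and ref2-1 med5 descend in that order, and every genotype overlapped its neighbours in it. Wild type replicate 3 and ref2-1 replicate 3 held the highest values.

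No tested comparison of PRN1 was called. Its log2 fold change was -0.08 ± 0.76 in ref5-1 against wild type (adjusted p = 0.966), -0.16 ± 0.76 in ref2-1 against wild type (adjusted p = 0.906) and 0.08 ± 0.77 in ref5-1 against ref2-1 (adjusted p = 0.960). With standard errors of 0.76 to 0.94 over the 6 comparisons, modest differences were not detectable at this spread. The value for ref5-1 against wild type ran from -0.56 to 1.40 when 1 library was left out. Without wild type replicate 3 it was 1.40 (adjusted p = 0.265), the value for ref2-1 against wild type was 1.31 (adjusted p = 0.214), and that for med5 against wild type was 0.51, above 0. In the triple mutants the log2 fold change was -0.22 ± 0.87 in ref5-1 med5 against med5 (adjusted p = 0.909), -0.98 ± 0.92 in ref2-1 med5 against med5 (adjusted p = 0.505) and 0.75 ± 0.94 in ref5-1 med5 against ref2-1 med5 (adjusted p = 0.646). As a description from all libraries, PRN1 stood at -0.98 ± 0.81 in med5 against wild type, -1.12 ± 0.83 in ref5-1 med5 against ref5-1 and -1.79 ± 0.88 in ref2-1 med5 against ref2-1, and the libraries did not overlap in the last of these alone.

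AT3G59260, which lies on chromosome 3 as PRN1 does, was close to the detection limit. It had 17 counts over all 18 libraries, with 0 to 3 per library. In 10 libraries at least 1 count was found, and all 3 wild-type libraries had 0. A count of 0 allows up to 3 counts, which is at most 0.158 CPM in a library, for counting error alone. No fold is given because every genotype was at or under that floor.

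Per kilobase of coding sequence, the scale on which levels of different genes can be compared, med5 had 3.60 CPM of PRN2, 2.24 of PRN4 and 1.68 of PRN1, against 19.2, 5.12 and 3.30 CPM per kilobase in wild type. PRN2 was the highest of the 4 on this scale in every genotype. In ref2-1 PRN1 and PRN4 stood close together, at 3.01 and 2.91 CPM per kilobase. The PRN2 coding sequence of 1119 bases is the longest of the family, against 933 for PRN4, 864 for PRN1 and 816 for AT3G59260.

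Set beside all genes tested, the pirins were called as follows. In ref5-1 against wild type 1 of the 3 tested pirins was called, where 8.72% of all tested genes were. In ref2-1 against wild type 2 of 3 were called (24.7% of all genes), in ref5-1 against ref2-1 2 of 3 (21.4%), and in ref2-1 med5 against med5 2 of 3 (16.3%). None of the 3 was called by edgeR in ref5-1 med5 against med5 (10.4% of all genes) or in ref5-1 med5 against ref2-1 med5 (14%). At an unadjusted p under 0.05 there were 0 and 2 in these comparisons, and DESeq2 called 0 and 1, which was PRN2. PRN1 was in none of these counts. These comparisons share libraries, so the counts are not independent of each other.

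Whether the effect of a glucosinolate allele depends on MED5 was tested for PRN4 and PRN1. For ref5-1 the interaction was -0.75 ± 0.38 on the log2 scale for PRN4 (adjusted p = 0.606) and -0.14 ± 1.15 for PRN1 (adjusted p = 0.988). For ref2-1 it was -0.35 ± 0.40 for PRN4 (adjusted p = 0.713) and -0.82 ± 1.20 for PRN1 (adjusted p = 0.789). Of these 2 genes 0 were called in either interaction by edgeR or by DESeq2, and 0 had an unadjusted p under 0.05, where 0.0905% and 0.749% of all genes were called.

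Transcripts of the proteins that PRN2 works with, and of its reported target, were examined next. XCP2, the protease that PRN2 stabilises, was lower in ref2-1 than in wild type, at 32.4 ± 6.80 and 50.6 ± 8.85 CPM (log2 fold change -0.64 ± 0.18, adjusted p = 0.0177). XCP2 was also higher in ref5-1 than in ref2-1 (0.75 ± 0.18, adjusted p = 0.00837). It was higher in ref2-1 med5 than in ref2-1, at 50.1 ± 9.35 and 32.4 ± 6.80 CPM (log2 fold change 0.63 ± 0.18, adjusted p = 0.0453), where PRN2 stood at 2.58 and 13.1 CPM. The call in ref2-1 against wild type was lost without wild type replicate 3 or ref2-1 replicate 2. That in ref2-1 med5 against ref2-1 was lost on leaving out any library of ref2-1 med5, ref2-1 replicate 2 or ref2-1 replicate 3. Both of these were lost when only the compared libraries were fitted. In ref5-1 against ref2-1 the number of partner genes called higher stayed at 1 in that fit and on leaving out each library. XCP2 was not called in med5 against wild type, at 66.6 ± 0.612 and 50.6 ± 8.85 CPM. HUB1 and HUB2, whose products form the histone H2B ubiquitin ligase, were not called in any comparison of genotypes, with log2 fold changes between -0.10 and 0.13. FAH1 had 232, 243 and 251 CPM in med5, against 167, 193 and 211 CPM in wild type. These libraries did not overlap, and the difference was not called (log2 fold change 0.35 ± 0.09, adjusted p = 0.0907). By edgeR 0 of these 4 genes, FAH1 included, were called in ref5-1 med5 against ref5-1 (10.8% of all genes). There 0 had an unadjusted p under 0.05. In ref2-1 med5 against ref2-1 (8.91% of all genes called) FAH1 was not called, and XCP2 was the 1 gene with an unadjusted p under 0.05. FAH1 was called lower in ref2-1 med5 than in med5, at 191 and 242 CPM (log2 fold change -0.34 ± 0.09, adjusted p = 0.0183), a comparison in which PRN2 was lower too. It was higher in ref5-1 med5 than in ref2-1 med5, at 246 and 191 CPM (log2 fold change 0.36 ± 0.09, adjusted p = 0.0139).

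Genes of monolignol synthesis and lignin polymerisation that were called with loss of MED5 were higher, where PRN2 was lower. Of 15 tested list genes 2 were higher and 0 lower in med5 than in wild type, with a list median of 0.25 on the log2 scale against -0.0017 over all tested genes, of which 0.337% were called higher and 0.442% lower. They were CCOAOMT1, a caffeoyl-CoA methyltransferase (404 and 287 CPM, log2 fold change 0.49 ± 0.07, adjusted p = 0.00183), and CSE, caffeoyl shikimate esterase (41.7 and 31.8 CPM, 0.39 ± 0.08, adjusted p = 0.0280). This count fell to 1 when any library of the comparison other than wild type replicate 3 was left out. In ref5-1 med5 against ref5-1 there were 6 higher and 0 lower (median 0.33; 6.09% of all genes higher and 4.71% lower), led by CCOAOMT1 (0.70 ± 0.07, adjusted p = 1.73e-05) and the acyltransferase HCT (0.51 ± 0.08, adjusted p = 0.000467). In ref2-1 med5 against ref2-1 there were 7 higher and 0 lower (median 0.57; 4.65% of all genes higher and 4.26% lower), again led by CCOAOMT1 (0.77 ± 0.07, adjusted p = 5.26e-06) and HCT (0.68 ± 0.08, adjusted p = 2.94e-05).

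Among plants with MED5, the same list had 12 of 15 genes higher and 0 lower in ref5-1 than in ref2-1 (median 0.43 against -0.02 over all genes, of which 10.4% were called higher and 11% lower), where PRN2 and PRN4 were higher as well. When only the compared libraries were fitted the count was 7. In ref2-1 against wild type 5 were lower and 0 higher (median -0.25, with 11.2% of all genes lower and 13.5% higher), among them HCT (107 and 185 CPM, log2 fold change -0.79 ± 0.08, adjusted p = 2.87e-06) and the cinnamyl alcohol dehydrogenase CAD4 (116 and 167 CPM, -0.53 ± 0.09, adjusted p = 0.000333). Leaving out wild type replicate 3 or ref2-1 replicate 2 lowered that count to 3. In ref5-1 against wild type 3 were higher and 1, HCT, lower (5.12% and 3.6% of all genes), and the higher count fell to 0 without wild type replicate 1 or 2 or ref5-1 replicate 2, and to 1 without ref5-1 replicate 3. When only the compared libraries were fitted both counts were 0, HCT included. The log2 fold change of HCT in the fit of all libraries was -0.36 ± 0.08 (adjusted p = 0.00577), from means of 144 CPM in ref5-1 and 185 CPM in wild type. Among plants without MED5, 5 of the 15 were higher and 0 lower in ref5-1 med5 than in med5 (10.4% of all genes called). In ref5-1 med5 against ref2-1 med5 7 were higher and 0 lower (14% of all genes called). PRN2 and PRN4 were called by edgeR in neither comparison. In ref2-1 med5 against med5, where both pirins were lower, 1 was higher and 2 lower (8.75% and 7.52% of all genes). The lists were drawn up with results of these libraries known, so their counts are not independent evidence of a direction.

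**Figure D3:**
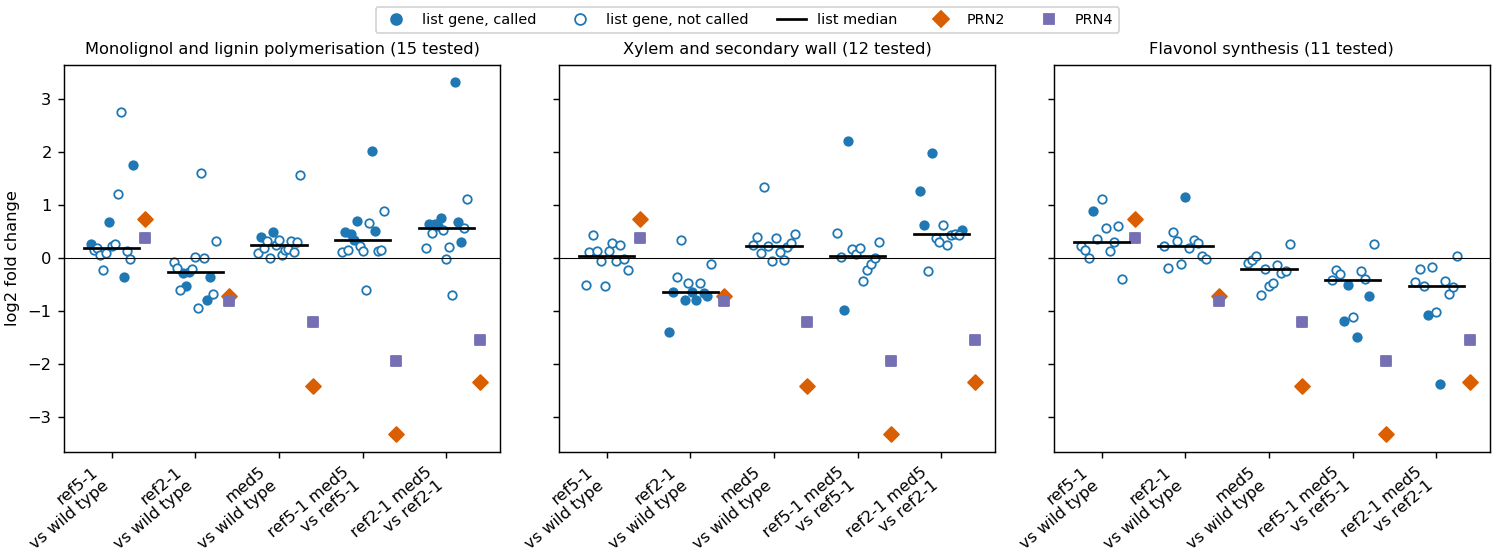
Log2 fold changes (vertical axis) of the tested genes of 3 lists in 5 comparisons (horizontal axis), as filled circles where called and open circles where not, with the list median as a bar and PRN2 and PRN4 beside them. In the 3 comparisons of MED5 loss the pirins lie between -1.20 and -3.32, below the lignin list medians of 0.25 to 0.57.

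PRN2 is expressed beside the xylem, so genes of xylem and secondary wall formation were examined beside it. Of 12 tested list genes 7 were lower and 0 higher in ref2-1 than in wild type (median -0.64, with 11.2% of all genes lower and 13.5% higher), where PRN2 fell too. They included the secondary wall cellulose synthase CESA4 (12.4 and 20.2 CPM, log2 fold change -0.71 ± 0.15, adjusted p = 0.00272), the xylan synthesis gene IRX9 (3.25 and 5.58 CPM, -0.79 ± 0.19, adjusted p = 0.00492) and the lignin regulator MYB58 (0.554 and 1.46 CPM, -1.39 ± 0.23, adjusted p = 0.00033). Leaving out wild type replicate 3 lowered the count to 4, and leaving out ref2-1 replicate 2 lowered it to 3. The summed level of the 14 listed genes ran from 71.3 to 97.6 CPM in ref2-1 and from 126 to 160 CPM in wild type. In ref5-1 against ref2-1 the count was 7 higher and 0 lower (median 0.74, with 10.4% and 11% of all genes), with summed levels of 110 to 172 CPM in ref5-1. In ref5-1 against wild type, where PRN2 was higher, 0 of the 12 were called by edgeR (8.72% of all genes). The list median was 0.05 there, and 2 genes had an unadjusted p under 0.05. In ref2-1 med5 against med5, where PRN2 and PRN4 were lower, 3 were lower and 0 higher (7.52% and 8.75% of all genes), with sums of 108 to 148 and 164 to 178 CPM. NST3 was at 0 in ref2-1 med5, med5 and wild type, and NST1 was at 0 in wild type. The part of these xylem genes in the PRN2 and PRN4 differences was not tested.

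With loss of MED5, where PRN2 was lower, 1 xylem gene (VND7, in the ref5-1 background) was called lower, a call lost without ref5-1 replicate 2 or 3 or ref5-1 med5 replicate 1 or 3, and when only the compared libraries were fitted. By edgeR 0 of 12 were called in med5 against wild type (0.779% of all genes), where 3 had an unadjusted p under 0.05 and all 3 stood higher in med5. The sums were 164 to 178 CPM in med5 against 126 to 160 CPM in wild type (median log2 fold change 0.23). In ref5-1 med5 against ref5-1 the sums were 127 to 158 and 110 to 172 CPM, with 1 gene higher and 1 lower (6.09% and 4.71% of all genes). In ref2-1 med5 against ref2-1 they were 108 to 148 and 71.3 to 97.6 CPM, with 4 genes higher and 0 lower (4.65% and 4.26% of all genes). The higher count fell to 2 when any of these libraries other than ref2-1 replicate 1 was left out. In each of these comparisons PRN2 was between 5.07-fold and 9.98-fold lower.

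Phloem markers, which stand for the other conducting tissue, were called in some of the same comparisons. In ref2-1 med5 against med5 3 of 4 were lower (7.52% of all genes), with sums of 273 to 300 CPM in ref2-1 med5 and 362 to 395 CPM in med5. In ref2-1 against wild type 1 of 4 was lower (11.2% of all genes), with overlapping sums of 314 to 351 and 333 to 351 CPM. In ref5-1 against ref2-1 2 of 4 were higher (10.4% of all genes), with sums of 336 to 425 and 314 to 351 CPM. Of the photosynthetic markers 4 of 5 were higher in ref5-1 than in ref2-1, with sums of 37964 to 41744 and 35696 to 36374 CPM, and 2 of 5 were lower in ref2-1 than in wild type, where the sums were 40661 to 42610 CPM. Their part in the pirin differences was not tested.

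Flavonols bear on the family through the quercetin-degrading activity reported for PRN1. Of 11 tested genes of flavonol synthesis 4 were lower and 0 higher in ref5-1 med5 than in ref5-1 (median -0.41, with 4.71% of all genes lower and 6.09% higher), among them F3H, flavanone 3-hydroxylase (74.5 and 168 CPM, log2 fold change -1.18 ± 0.25, adjusted p = 0.00898), and F3'H, flavonoid 3'-hydroxylase (12.6 and 35.0 CPM, -1.49 ± 0.42, adjusted p = 0.0425). That count fell to 1 without ref5-1 replicate 1 or 2 or ref5-1 med5 replicate 2 or 3, and to 2 without ref5-1 replicate 3. In ref2-1 med5 against ref2-1 2 were lower and 0 higher (median -0.52, with 4.26% of all genes lower and 4.65% higher), F3'H (5.18 and 26.7 CPM, -2.37 ± 0.46, adjusted p = 0.00782) and F3H (53.7 and 113 CPM, -1.08 ± 0.25, adjusted p = 0.0156). That count fell to 1 without ref2-1 replicate 1 or any library of ref2-1 med5, and was 4 without ref2-1 replicate 2. It was 1 when only the compared libraries were fitted. In med5 against wild type 0 of 11 were called by edgeR (0.779% of all genes), and 1 had an unadjusted p under 0.05.

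Of the 4 tested genes around PRN1, 1 was higher in ref5-1 than in wild type (5.12% of all genes). It was NF-YA5, a subunit of the NF-Y factor (3.26 and 1.84 CPM, log2 fold change 0.83 ± 0.20, adjusted p = 0.0143). In ref2-1 against wild type, where 13.5% of all genes were called higher and 11.2% lower, NF-YA5 (0.59 ± 0.20, adjusted p = 0.0395) and GPA1 (37.6 and 32.2 CPM, 0.22 ± 0.07, adjusted p = 0.0285) were higher. ADT3, an arogenate dehydratase of phenylalanine synthesis, was lower (39.3 and 46.7 CPM, -0.25 ± 0.09, adjusted p = 0.0473). Each of these calls was lost without at least 1 library, and when only the compared libraries were fitted the ref2-1 counts were 1 higher and 0 lower. In ref2-1 med5 against med5 2 of the 4 were higher and 0 lower (8.75% and 7.52% of all genes). None of the 4 tested genes was called by edgeR in the 3 comparisons of MED5 loss, where 0.779%, 10.8% and 8.91% of all genes were. At an unadjusted p under 0.05 there were 1, 1 and 0 in the wild-type, ref5-1 and ref2-1 backgrounds. PRN1 itself was called in no tested comparison.

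Other papain-like cysteine proteases were examined beside XCP2. Of 7 tested, 0 were called in med5 against wild type by edgeR (0.779% of all genes), and 1, XCP2, had an unadjusted p under 0.05. In ref5-1 med5 against ref5-1 1 was higher and 1 lower (6.09% and 4.71% of all genes). The counts were the same in ref2-1 med5 against ref2-1 (4.65% and 4.26%). Both higher counts fell to 0 when only the compared libraries were fitted. In ref5-1 against ref2-1 3 were higher and 0 lower (10.4% and 11% of all genes). In ref5-1 against wild type, where PRN2 was higher, 3 were higher and 0 lower (5.12% and 3.6% of all genes): the vacuolar proteases RD19A (92.4 and 61.8 CPM, log2 fold change 0.58 ± 0.11, adjusted p = 0.00231) and AALP (349 and 270 CPM, 0.37 ± 0.09, adjusted p = 0.0176), and CEP1 (1.11 and 0.255 CPM, 2.09 ± 0.36, adjusted p = 0.00137). In ref2-1 against wild type 1 was higher, RD19A (83.7 and 61.8 CPM, 0.44 ± 0.11, adjusted p = 0.00601), and 2 were lower (13.5% and 11.2% of all genes). XCP1, a close relative of XCP2, was lower together with it (15.4 and 26.6 CPM, -0.80 ± 0.22, adjusted p = 0.0143), and neither was called without wild type replicate 3 or without ref2-1 replicate 2.

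PRN2 lies on chromosome 2, as does MED5B, so the 3 nearest tested genes on each side were examined. By edgeR none of these 6 genes was called in med5 against wild type (0.779% of all genes) or in ref2-1 med5 against ref2-1 (8.91%). At an unadjusted p under 0.05 there were 3 and 0. In ref5-1 med5 against ref5-1, where PRN2 was 9.98-fold lower, 4 of the 6 were called (10.8% of all genes). The adjacent gene AT2G43110 was lower (18.1 and 23.4 CPM, log2 fold change -0.37 ± 0.10, adjusted p = 0.0207), as was IPMI2, an isopropylmalate isomerase subunit (98.6 and 131 CPM, -0.41 ± 0.13, adjusted p = 0.0411). ARA4, a Rab GTPase and the next gene on the other side, averaged 17.1 CPM in ref5-1 med5 and 15.8 CPM in ref5-1. AT2G43150 was higher (114 and 44.6 CPM, log2 fold change 1.36 ± 0.23, adjusted p = 0.00234), as was AT2G43140, which had at most 0.626 CPM. Of the 6 neighbours 4 were called in ref2-1 against wild type (24.7% of all genes) and 2 in ref5-1 against wild type (8.72%). ARA4 was higher in ref2-1 than in wild type (0.25 ± 0.08, adjusted p = 0.0310). IPMI2 was higher in ref2-1 than in wild type (220 and 89.6 CPM, 1.29 ± 0.13, adjusted p = 3.27e-06), where PRN2 was lower, and higher in ref5-1 than in wild type (0.55 ± 0.13, adjusted p = 0.0098), where PRN2 was higher. AT2G43150 was higher in both as well, by 1.59 ± 0.23 in ref2-1 (adjusted p = 0.000277) and 1.11 ± 0.23 in ref5-1 (adjusted p = 0.00916) on the log2 scale. No annotated gene overlapped any of the 4 pirins.

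**Figure D4:**
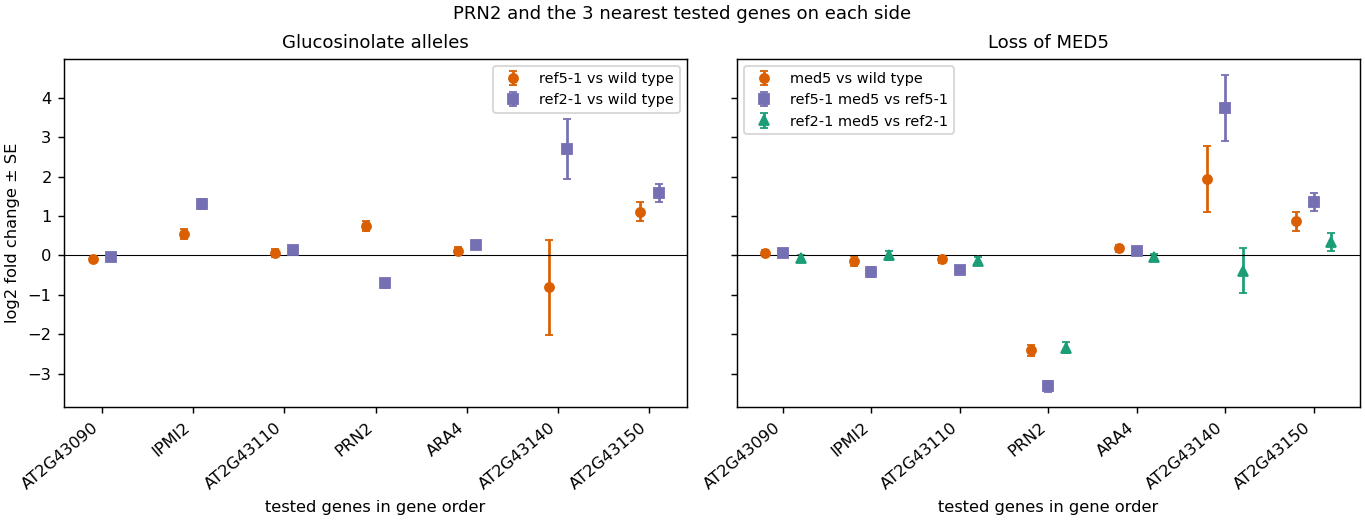
Log2 fold changes (vertical axis) with their SE for PRN2 and the 3 nearest tested genes on each side, in gene order (horizontal axis), for ref5-1 and ref2-1 against wild type (left) and for MED5 loss in 3 backgrounds (right). AT2G43140 was under 1 CPM in every library, and PRN2 alone among the 7 genes lies below -2 in the right panel.

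The gene most like each pirin was sought as the smallest root mean square difference between log2 CPM profiles, each centred on its own mean, over the 18 libraries. Candidates had to average 5 CPM or more. For PRN2, whose own profile has a root mean square of 1.42, the nearest genes were MED5B (a difference of 0.68), AT1G03940 (0.68), AT5MAT (0.69), UF3GT (0.69) and GSTF12 (0.72). The PRN2 profile holds the MED5 difference behind its choice, so likeness to genes lower without MED5 is not independent of that choice. MED5B is itself disrupted in the med5 libraries. The other named genes act late in anthocyanin synthesis: AT5MAT and UF3GT modify the pigment and GSTF12 carries it to the vacuole. PRN2 and PRN4 differed from each other by 0.66, PRN1 and PRN4 by 1.05, and PRN1 and PRN2 by 1.23. With candidates of at least 1 CPM, PRN4 was the nearest of all genes to PRN2. With Pearson's correlation in place of the difference, 2 of the 5 genes stayed, MED5B and AT1G03940. The anthocyanin genes AT5MAT, UF3GT and GSTF12 were not among the 5 nearest by correlation, and MED5B did not come first. Their correlations with PRN2 were 0.901 for AT5MAT, 0.877 for UF3GT and 0.901 for GSTF12. AT1G03940, which stayed, had 0.902, so for AT5MAT and GSTF12 the change of place was narrow. The correlation with MED5B was 0.916 over 18 libraries that fall into 6 genotypes, given as a description.

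Within wild type the anthocyanin genes shown here varied more than PRN2 did. The ref5-1 med5 libraries had 8.92, 4.15 and 6.98 CPM of UF3GT, those of ref2-1 med5 had 3.76, 3.04 and 2.64 CPM and those of med5 had 8.87, 7.17 and 8.53 CPM. It had 35.6, 32.6 and 29.6 CPM in ref5-1, 23.6, 9.95 and 14.4 CPM in ref2-1 and 8.77, 11.9 and 29.8 CPM in wild type. The wild-type libraries of UF3GT thus spread widely, with replicate 3 the highest, whereas those of PRN2 lay between 21.2 and 21.9 CPM. GSTF12 had 29.2, 33.6 and 63.0 CPM in the same wild-type libraries.

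For PRN4 the nearest genes were TLL1, a triacylglycerol lipase-like protein (0.49), AT1G03940 (0.54) and AT4G13800 (0.54), and none of the 3 stayed under Pearson's correlation, by which PRN2 came first. For PRN1 they were ILL6 (0.39), AOC1 (0.46) and CLH1 (0.51). ILL6 encodes an amidohydrolase of jasmonate turnover and AOC1 an allene oxide cyclase of jasmonate synthesis. AOC1 had 89.1, 62.4 and 296 CPM in ref2-1 and 34.8, 42.7 and 209 CPM in wild type. Replicate 3 was the highest in both genotypes, as it was for PRN1, at 4.62 CPM in ref2-1 and 6.52 CPM in wild type.

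**Figure D5:**
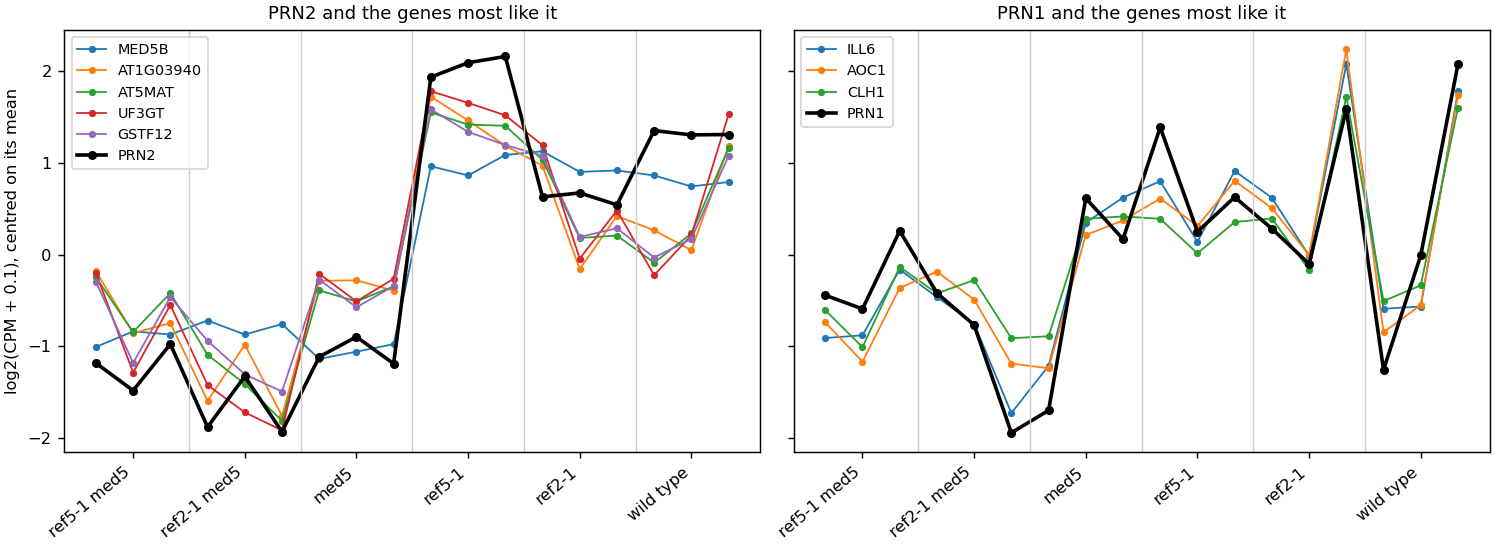
Profiles over the 18 libraries (horizontal axis, replicates 1 to 3 within each genotype) of PRN2 with its 5 nearest genes (left) and PRN1 with its 3 nearest genes (right), as log2(CPM + 0.1) centred on each gene's mean (vertical axis). The PRN1 curves peak together in ref2-1 replicate 3 and wild type replicate 3, while PRN2 is level across the wild-type libraries.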

How the data were processed

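Raw read counts per gene were deposited by the authors as 1 table of 18 libraries, without normalization. The submitters' processing notes name the TAIR10 build and the tools TopHat2 2.1.0, Trimmomatic, edgeR and HTSeq 0.6.1. Which strand setting, options and annotation were used is not given in the sources here. Groups follow the genotype given in each label. The 5 summary lines of the table were left out of library sizes and tests: they held 3.71% to 25.3% of a library as multiply aligned, 0.775% to 1.44% as outside any feature and 0.648% to 1.37% as ambiguous. The 25.3% was that of ref5-1 med5 replicate 1, also the library with the fewest gene counts (19578169). The next highest share was 8.91%, in ref2-1 replicate 2.

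Counts were scaled by TMM, filtered by filterByExpr on the genotypes (19897 genes kept) and fitted in edgeR 4.0.16 (R 4.3.3) with a robust quasi-likelihood model over all 18 libraries. A gene was called at a Benjamini-Hochberg adjusted p under 0.05 over all tested genes. Standard errors were derived from the F statistic. Likeness used log2 CPM with a prior count of 2. Of the gene IDs, 32835 matched a TAIR10.1 gene table, which served for symbols, gene order and coding lengths alone, since its assembly differs in name from TAIR10.

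The members, lists and alternatives were chosen with earlier results of these data known. All 4 pirins, the targeted genes, the partners of PRN2, the 3 tested genes on each side of PRN2 and the nearest profiles (5 for PRN2, 3 each for PRN1 and PRN4) could be named, and up to 4 called genes with the smallest adjusted p from each other list. The series describes biological triplicates, 3 libraries per genotype. In the main fit every p-value rests on 1 estimate of spread per gene, shared by all genotypes and moderated across genes. It does not measure the spread of the compared libraries alone. The scripts were tested on simulated counts. Alternatives were DESeq2 1.42.0, its size factors in edgeR, no count filter, fits of the compared libraries alone, a replicate block and leaving out each library. Intervals and floors cover counting error only.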

Additional observations from a re-analysis of the deposited data

Results flagged for a closer look

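PRN2 was flagged because the effects of the glucosinolate alleles differ. It was higher in ref5-1 than in wild type (log2 fold change 0.75) and lower in ref2-1 than in wild type (-0.71), and the difference between the alleles, ref5-1 against ref2-1, was 1.46 ± 0.12 (SE, adjusted p = 5.71e-07, edgeR's quasi-likelihood test). All 3 libraries of ref5-1 lay above those of wild type and all 3 of ref2-1 below. These libraries also served to choose PRN2, so the test is not fully separate from that choice.

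PRN4 was flagged on the same ground, at 0.38 in ref5-1 and -0.81 in ref2-1 against wild type. The value in ref5-1 was not called (adjusted p = 0.376, edgeR's quasi-likelihood test). That in ref2-1 was called, but not without wild type replicate 2, ref2-1 replicate 1 or ref2-1 replicate 3. The difference between the alleles was 1.19 ± 0.25 on the log2 scale (adjusted p = 0.0025, edgeR's quasi-likelihood test).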

How the results depend on the processing

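The called log2 fold changes of PRN2 and PRN4 kept their direction under DESeq2, its size factors, no count filter, a replicate block, fits of the compared libraries alone and leaving out each library. PRN2 in ref5-1 med5 against ref2-1 med5 passed the threshold with DESeq2's size factors in edgeR (0.49, adjusted p = 0.0473) and with DESeq2 (0.49, adjusted p = 0.0403). PRN4 in ref2-1 med5 against med5 missed it in the fit of compared libraries (-1.16, adjusted p = 0.0570, fewer samples). Leaving out 1 library gave -0.88 to -0.53 for PRN2 in ref2-1 med5 against med5, 0.35 to 0.71 for PRN2 in ref5-1 med5 against ref2-1 med5, -0.99 to -0.65 for PRN4 in ref2-1 against wild type, -1.64 to -0.81 for PRN4 in ref2-1 med5 against med5, and 0.44 to 1.27 for PRN4 in ref5-1 med5 against ref2-1 med5. The ref2-1 by med5 interaction of PRN2 ran from -0.16 (without ref2-1 med5 replicate 2) to 0.19, and the PRN1 values in ref5-1 against wild type took either sign. The cause was not tested.

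Numbers of called genes moved by over 1.5 times in the fit of compared libraries: 1057 against 1735 in ref5-1 against wild type, 2816 against 4258 in ref5-1 against ref2-1, 1166 against 2149 in ref5-1 med5 against ref5-1, and 10 against 18 in the ref5-1 by med5 interaction. DESeq2 gave 125 in that interaction, 595 against 149 in the ref2-1 by med5 interaction and 494 against 155 in med5 against wild type. Leaving out 1 library gave 716 to 1695 in ref5-1 against wild type, 3072 to 4030 in ref5-1 against ref2-1, 1078 to 2079 in ref5-1 med5 against med5, 1578 to 2579 in ref2-1 med5 against med5, 1421 to 2599 in ref5-1 med5 against ref2-1 med5, 52 to 184 in med5 against wild type, 897 to 2216 in ref5-1 med5 against ref5-1, 762 to 1468 in ref2-1 med5 against ref2-1, 10 to 33 in the ref5-1 by med5 interaction and 38 to 475 in the ref2-1 by med5 interaction.

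Replicate numbers were not treated as pairs in the main fit. Of 45 pairs with the same number 13 had correlated deviations above 0.1, and 7 of 18 libraries correlated best with their own number. The median correlation was 0.036 for the same number and -0.012 for different numbers. No share expected without pairing was computed, so these values do not decide whether the libraries pair. With the replicate block PRN2 stood at 0.74 in ref5-1 against wild type and -0.71 in ref2-1 against wild type, no call of a pirin changed, the lignin genes higher in ref5-1 than in wild type numbered 1 against 3, the genes around PRN1 called in ref2-1 against wild type numbered 1 higher and 0 lower against 2 and 1, and the ref2-1 by med5 interaction had 297 called genes.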
